A study of Mus musculus with 3 samples.

Results

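The genes of sterol and fatty acid synthesis were followed through the first steps of nephron formation in the mouse kidney. The set holds 32 of the 27998 genes in the count table, matched by gene symbol to a list of pathway genes: 18 enzymes of sterol synthesis, 6 genes of sterol regulation and transport, and 8 enzymes of fatty acid synthesis, elongation and desaturation. All 32 had enough counts to be tested in every comparison. The cells came from embryos of the strain Six2GFP+ at E14.5 (embryonic day), and kidneys of several litters shared 3 tubes. They were sorted by green fluorescence for nephron progenitors, which the labels give as the cell type, and run on a 10x Chromium chip. There was no control tube and no second genotype, and every cell carried the fluorescent allele.

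Cells were grouped by their unique molecular identifiers (UMIs, one per captured mRNA molecule) of 4 genes. Lhx1 cells held at least 1 UMI of Lhx1, a LIM homeobox gene of the early nephron that the ureteric bud also expresses. Wnt4 cells held at least 1 UMI of Wnt4, the signal of the mesenchymal-to-epithelial transition, and none of Lhx1. Fgf8 cells held at least 1 UMI of the growth factor gene Fgf8 and none of Lhx1 or Wnt4. Six2 cells held at least 1 UMI of Six2, the transcription factor that keeps progenitors self-renewing, and no UMI of Lhx1, Wnt4 or Fgf8. There were 79 Lhx1, 413 Wnt4, 2526 Fgf8 and 3848 Six2 cells among 7898 kept cells, and 1032 cells were in no group. Median UMIs per cell were 16238 in Lhx1, 18385 in Wnt4, 15811 in Fgf8 and 14120.5 in Six2 cells. Depth thus differed between the groups, and fits at equal depth are given below. The literal rule would also have placed 20 of the Lhx1 cells with the Six2 cells and 22 with the Fgf8 cells. These 4 genes were left out of the tests.

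Cholesterol is built from acetyl-CoA through mevalonate and isoprenoids to squalene, which is closed into lanosterol and then trimmed to cholesterol. When membrane sterol is low, Scap escorts the SREBP transcription factors from the endoplasmic reticulum, where Insig proteins otherwise hold them, and SREBP2 mainly raises the sterol genes while SREBP1 mainly raises the fatty acid genes. Growing and dividing cells need both products for new membrane, and Hedgehog signalling depends on sterols.

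SREBP factors act at promoters together with NF-Y, so the promoters of sterol enzymes that passed in both the Lhx1 and the Wnt4 comparison with Six2 cells are shown before the values. The reference tables held promoters for 25 of the 32 members and for 6 of the 8 that passed in both comparisons. The 4 of the cholesterol pathway with a match are given 5′ to 3′ on the gene's strand as the 200 bases directly before the RefSeq start (build GRCm38.p6). They lie at chr13:119690151-119690350 (Hmgcs1, plus strand), chr13:8885406-8885605 (Idi1, plus strand), chr5:4104698-4104897 (Cyp51, minus strand) and chr8:64733579-64733778 (Msmo1, minus strand). Capitals mark TCACNCCAC, a sterol element, and the NF-Y box CCAAT, each on either strand.
Hmgcs1: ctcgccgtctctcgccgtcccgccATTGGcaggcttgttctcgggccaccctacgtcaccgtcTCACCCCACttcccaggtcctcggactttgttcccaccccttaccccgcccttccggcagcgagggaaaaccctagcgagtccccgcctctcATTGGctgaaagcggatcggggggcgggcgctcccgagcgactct
Idi1: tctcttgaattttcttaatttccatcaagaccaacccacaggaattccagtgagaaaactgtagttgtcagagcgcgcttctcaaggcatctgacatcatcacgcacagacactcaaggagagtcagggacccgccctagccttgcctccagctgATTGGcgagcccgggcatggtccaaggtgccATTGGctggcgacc
Cyp51: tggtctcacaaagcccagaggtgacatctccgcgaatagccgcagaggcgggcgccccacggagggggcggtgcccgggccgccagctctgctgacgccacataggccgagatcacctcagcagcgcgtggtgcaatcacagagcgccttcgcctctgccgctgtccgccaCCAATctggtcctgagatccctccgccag
Msmo1: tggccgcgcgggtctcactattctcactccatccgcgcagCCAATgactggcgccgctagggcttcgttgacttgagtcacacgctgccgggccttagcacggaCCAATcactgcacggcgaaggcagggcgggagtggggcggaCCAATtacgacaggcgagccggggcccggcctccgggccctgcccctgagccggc
Hmgcs1 held 1 sterol element and 2 NF-Y boxes in this stretch, Idi1 held 2 NF-Y boxes, Cyp51 held 1 and Msmo1 held 3. The windows of Acat2 and Elovl6 held neither motif. Over the 250 bases before the start, the sterol element was found in 1 of 25 member genes, against 1.22% of all 27025 genes in the table. CCAAT was found in 19 of 25 member genes, against 37.5% of all genes, and the GC box GGGCGG in 21 of 25, against 35.4%. The E-box CACGTG was found in 5 of 25, against 6.86%. None of the 4 letter patterns contains another. These are matches of letters in a short window, given with no test.

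Suffixes 1, 2 and 3 of the cell barcodes mark the 3 tubes, and values are given in this order throughout. They held 3024, 2760 and 2114 kept cells with medians of 15913.5, 11915 and 15815 UMIs per cell. Ribosomal protein genes took 26.2%, 14.4% and 22.4% of their UMIs, so levels of other genes, given as CPM (a gene's counts scaled to a common total of UMIs), stand higher in suffix 2. Barcode sequences shared between suffixes numbered 22, in 44 cells. Fgf8 had a UMI in 34.5% of cells outside the immune class (median 14590 UMIs) and in 4 of 81 cells with 2 or more immune markers (4.94%; median 9958 UMIs), where it would not be expected to be transcribed. The same shares were 5.58% and 1 of 81 cells for Wnt4, and 1.01% and 0 of 81 cells, which allows a share of up to 3.7%, for Lhx1. For Six2 they were 81.5% and 10 of 81 cells (12.3%), the highest of the 4 genes. Each tube held several litters and each suffix gave 1 sum per group. A p-value here thus rests on within-tube differences over 3 tubes and does not measure the spread between embryos or litters. The spread it uses was estimated over all groups of a fit together and drawn towards the trend over all genes. That spread may be technical. The comparisons of Lhx1, Wnt4 and Fgf8 cells with Six2 cells share the Six2 sums.

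Markers of nephron stages were read without the 4 grouping genes. The 5 early nephron markers other than Lhx1 (Jag1, Pou3f3, Osr2, Dll1 and Emx2) summed to 232, 150 and 159 CPM in Lhx1 cells and to at most 14.9 CPM in each other group. The 3 committing markers other than Wnt4 (Pax8, Tmem100 and Ccnd1) summed to 545, 612 and 1017 CPM in Lhx1 cells, 237, 288 and 257 CPM in Wnt4 cells, 150, 195 and 151 CPM in Fgf8 cells and 145, 170 and 145 CPM in Six2 cells. The 5 uncommitted progenitor markers other than Six2 averaged 619 ± 211 CPM in Lhx1 cells, 767 ± 242 CPM in Wnt4 cells, 1094 ± 223 CPM in Fgf8 cells and 1134 ± 231 CPM in Six2 cells (SD, n = 3). Fgf8 and Six2 cells thus lay close together and overlapped in both of these sums. The 6 ureteric markers summed to 52.8, 273 and 128 CPM in Lhx1 cells and to at most 8.38 CPM elsewhere, and 7 of the 79 Lhx1 cells held 2 or more ureteric or immune markers. In Lhx1 cells of suffix 1 the ureteric markers Calb1, Ret and Wnt11 were at 0. Immune markers summed to at most 53.6 CPM, endothelial ones to at most 3.87 CPM and erythroid ones to at most 2.06 CPM in the groups, and stromal ones to 9.23 to 69.5 CPM.

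Sterol synthesis transcripts were highest in Lhx1 cells, lower in Wnt4 cells, lower again in Fgf8 cells and lowest in Six2 cells, whereas fatty acid synthesis transcripts differed less. Together the 18 sterol enzymes stood at 1191, 1439 and 1347 CPM in Lhx1 cells, 873, 1293 and 954 CPM in Wnt4 cells, 786, 1080 and 805 CPM in Fgf8 cells and 699, 957 and 744 CPM in Six2 cells. The order of the 4 groups was the same in each suffix. Over the suffixes only the Lhx1 and Six2 values, and the Lhx1 and Fgf8 values, did not overlap. Relative to Six2 cells of the same suffix, the enzyme sum was 1.67 ± 0.156 times as high in Lhx1 cells, 1.29 ± 0.0523 times in Wnt4 cells and 1.11 ± 0.0258 times in Fgf8 cells (SD, n = 3).

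The 8 fatty acid enzymes summed to 376, 401 and 419 CPM in Lhx1 cells, 355, 386 and 346 CPM in Wnt4 cells, 314, 391 and 309 CPM in Fgf8 cells and 306, 380 and 313 CPM in Six2 cells. Lhx1 cells were highest within each suffix, and the ranges of all groups overlapped. Their ratios to Six2 cells were 1.21 ± 0.143 in Lhx1 cells, 1.09 ± 0.0727 in Wnt4 cells and 1.01 ± 0.0236 in Fgf8 cells (SD, n = 3). In each suffix and each of these groups the fatty acid ratio was below the sterol enzyme ratio. The 6 genes of sterol regulation and transport summed to 165, 187 and 149 CPM in Lhx1 cells, 140, 184 and 156 CPM in Wnt4 cells, 133, 181 and 135 CPM in Fgf8 cells and 129, 171 and 132 CPM in Six2 cells, at ratios to Six2 cells of 1.17 ± 0.0954, 1.12 ± 0.0582 and 1.04 ± 0.023 (SD, n = 3).

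**Figure D1:**
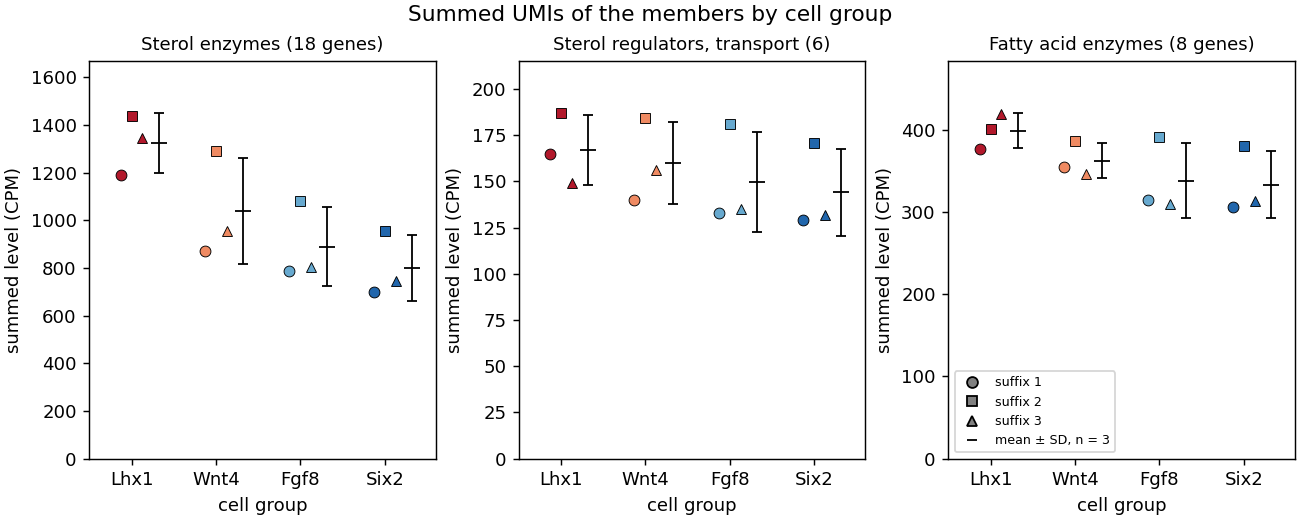
Summed levels (CPM, linear axes from 0) of the 18 sterol enzymes, the 6 genes of sterol regulation and transport and the 8 fatty acid enzymes in Lhx1, Wnt4, Fgf8 and Six2 cells. Each symbol is 1 barcode suffix and the bar is the mean ± SD over 3 suffixes; the sterol enzymes lie at 1191 to 1439 CPM in Lhx1 cells and at 699 to 957 CPM in Six2 cells, with suffix 2 the highest of each group in that panel.

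Of the 32 members, 8 passed for Lhx1 against Six2 cells, each higher (edgeR, adjusted p under 0.05), where 4.14% of 12273 genes tested were higher and 2.97% lower (7.11% in all). Their median log2 change was 0.43, against -0.04 over all genes. For Wnt4 against Six2 cells 9 passed, each higher, where 8.83% of genes were higher and 8.61% lower (17.4% in all), with a median of 0.21 against -0.02. For Fgf8 against Six2 cells 7 passed, each higher, where 5.3% of genes were higher and 4.77% lower (10.1% in all), with a median of 0.09 against -0.02. For Lhx1 against Wnt4 cells only Fdps passed, higher, where 1.14% of genes were higher and 0.293% lower (1.43% in all), with a median of 0.20 against -0.02. Wnt4 and Fgf8 cells were not tested against each other.

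The genes of the largest changes lie on chromosome 8 (Msmo1, ENSMUSG00000031604, 64718139 to 64733792, minus strand), chromosome 3 (Fdps, ENSMUSG00000059743, 89093588 to 89101959, minus strand) and chromosome 13 (Idi1, ENSMUSG00000058258, 8885501 to 8892451, and Hmgcs1, ENSMUSG00000093930, 119690379 to 119708260, both plus strand) of GRCm38. The promoter windows above were placed by RefSeq starts, which can differ from these bounds. That of Msmo1 lies inside the bounds given here, and that of Idi1 lies partly inside. Counts are per gene and do not separate exons or transcripts.

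Among the 7 mevalonate enzymes, Hmgcs1, Idi1 and Fdps were higher in all 3 groups than in Six2 cells, and Acat2 was higher in Lhx1 and Wnt4 cells. Fdps makes farnesyl pyrophosphate, where the sterol and the other isoprenoid branches part. It stood at 182, 265 and 299 CPM in Lhx1 cells and 112, 196 and 143 CPM in Wnt4 cells, then 104, 153 and 122 CPM in Fgf8 cells and 84.7, 125 and 101 CPM in Six2 cells. Lhx1 values were above all Six2 and Fgf8 values and overlapped those of Wnt4 cells, although within each suffix they were higher. Its log2 change against Six2 cells was 1.21 ± 0.10 in Lhx1 cells (SE; edgeR adjusted p = 8.25e-11), 0.50 ± 0.06 in Wnt4 cells (1.26e-07) and 0.30 ± 0.04 in Fgf8 cells (2.46e-06). Against Wnt4 cells it was 0.72 ± 0.10 higher in Lhx1 cells (edgeR adjusted p = 2.68e-05).

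Hmgcs1 condenses acetyl groups into the precursor of mevalonate. Its levels were 116, 152 and 133 CPM in Lhx1 cells, 83.2, 151 and 104 CPM in Wnt4 cells, 72.2, 104 and 71.9 CPM in Fgf8 cells and 61.8, 86.4 and 64.9 CPM in Six2 cells. Lhx1 and Six2 values did not overlap, and the log2 changes against Six2 cells were 0.89 ± 0.12 for Lhx1, 0.60 ± 0.07 for Wnt4 and 0.22 ± 0.04 for Fgf8 cells (SE; edgeR adjusted p = 5.62e-06, 3.37e-08 and 0.000502). Idi1 turns the first isoprenoid unit into its reactive isomer. It was at 127, 142 and 106 CPM in Lhx1 cells, 73.4, 119 and 94.1 CPM in Wnt4 cells, 65.6, 83.8 and 58.4 CPM in Fgf8 cells and 51.4, 71.8 and 52.1 CPM in Six2 cells. All Lhx1 and all Wnt4 values were above all Six2 values, with log2 changes of 1.11 ± 0.14 and 0.66 ± 0.08, and that of Fgf8 cells was 0.26 ± 0.05 (SE; edgeR adjusted p = 6.91e-07, 6.49e-08 and 0.000367).

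Acat2 makes acetoacetyl-CoA in the cytosol. It had 149, 179 and 200 CPM in Lhx1 cells, 127, 183 and 126 CPM in Wnt4 cells, 111, 162 and 114 CPM in Fgf8 cells and 109, 147 and 112 CPM in Six2 cells. Its log2 change was 0.49 ± 0.10 in Lhx1 cells and 0.23 ± 0.06 in Wnt4 cells (SE; edgeR adjusted p = 0.002 and 0.00351), and 0.07 ± 0.04 in Fgf8 cells, which did not pass. The other 3, the kinases Mvk and Pmvk and the decarboxylase Mvd, passed in none of the 4 comparisons by edgeR or DESeq2, and none had an unadjusted p under 0.05. Their log2 changes against Six2 cells lay between -0.07 (Pmvk) and 0.34 (Mvk) in Lhx1 cells, between -0.12 (Pmvk) and 0.11 (Mvd) in Wnt4 cells and between 0.01 (Pmvk) and 0.08 (Mvd) in Fgf8 cells.

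Of the 11 enzymes from squalene to cholesterol, the same 3, Sqle, Cyp51 and Msmo1, passed against Six2 cells in each group. Msmo1 takes off the C4 methyl groups of the sterol ring. It was at 138, 107 and 98.8 CPM in Lhx1 cells, 82.5, 98.6 and 78.9 CPM in Wnt4 cells, 63.2, 78.8 and 55.4 CPM in Fgf8 cells and 43.7, 66.5 and 42.8 CPM in Six2 cells. The ranges of Lhx1, Wnt4 and Six2 cells did not overlap with each other, and those of Fgf8 and Six2 cells did. The log2 changes were 1.25 ± 0.15, 0.79 ± 0.08 and 0.39 ± 0.05 in Lhx1, Wnt4 and Fgf8 cells (SE; edgeR adjusted p = 4.46e-07, 1.31e-08 and 6.62e-06), the largest of any member in the Lhx1, Wnt4 and Fgf8 comparisons with Six2 cells.

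Cyp51 demethylates lanosterol. Its values were 62, 82.9 and 65.1 CPM in Lhx1 cells, 49.5, 53.6 and 49.1 CPM in Wnt4 cells, 37.4, 53 and 42.4 CPM in Fgf8 cells and 34.8, 43.7 and 37.6 CPM in Six2 cells. Lhx1, Wnt4 and Six2 cells did not overlap here either, with log2 changes of 0.82 ± 0.16 and 0.43 ± 0.08 and, for Fgf8 cells, 0.19 ± 0.05 (SE; edgeR adjusted p = 0.000526, 0.000281 and 0.012). Sqle, which oxidises squalene, had 93.6, 107 and 72.3 CPM in Lhx1 cells, 68.7, 101 and 81.8 CPM in Wnt4 cells, 64.7, 88.8 and 63.7 CPM in Fgf8 cells and 56.9, 75.8 and 61.8 CPM in Six2 cells. The groups overlapped, and within each suffix Six2 cells were lowest; the log2 changes were 0.51 ± 0.14, 0.34 ± 0.07 and 0.17 ± 0.04 in Lhx1, Wnt4 and Fgf8 cells (SE; edgeR adjusted p = 0.0178, 0.000469 and 0.00908).

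The other 8 of these enzymes did not pass in a comparison of groups by edgeR, although Fdft1 and Dhcr7 in Lhx1 cells, Sc5d in Wnt4 cells and Sc5d and Tm7sf2 in Fgf8 cells had an unadjusted p under 0.05 against Six2 cells. Fdft1, which joins farnesyl units into squalene, had 65.9, 58.8 and 77.1 CPM in Lhx1 cells and 53.3, 62.9 and 41.7 CPM in Wnt4 cells, against 46, 57.8 and 46.3 CPM in Fgf8 cells and 45.5, 55.7 and 43.6 CPM in Six2 cells. Its log2 change in Lhx1 against Six2 cells was 0.47 ± 0.16 (SE; edgeR adjusted p = 0.0661; DESeq2 adjusted p = 0.018). Hsd17b7, a ketoreductase of the C4 demethylation, had 11.9, 18.7 and 9.64 CPM in Lhx1 cells, 10, 11.9 and 12.8 CPM in Wnt4 cells, 10, 11.9 and 8.95 CPM in Fgf8 cells and 7.79, 12.5 and 9.06 CPM in Six2 cells, with overlap throughout. The remaining 6, Lss, Tm7sf2, Nsdhl, Ebp, Sc5d and Dhcr7, had log2 changes of 0.24 to 0.54 in Lhx1 cells, 0.02 to 0.35 in Wnt4 cells and -0.26 to 0.15 in Fgf8 cells. Counts limited what could be seen in Lhx1 cells: Lss had 1 UMI in suffix 2 and Tm7sf2 had 1 UMI in suffix 3.

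**Figure D2:**
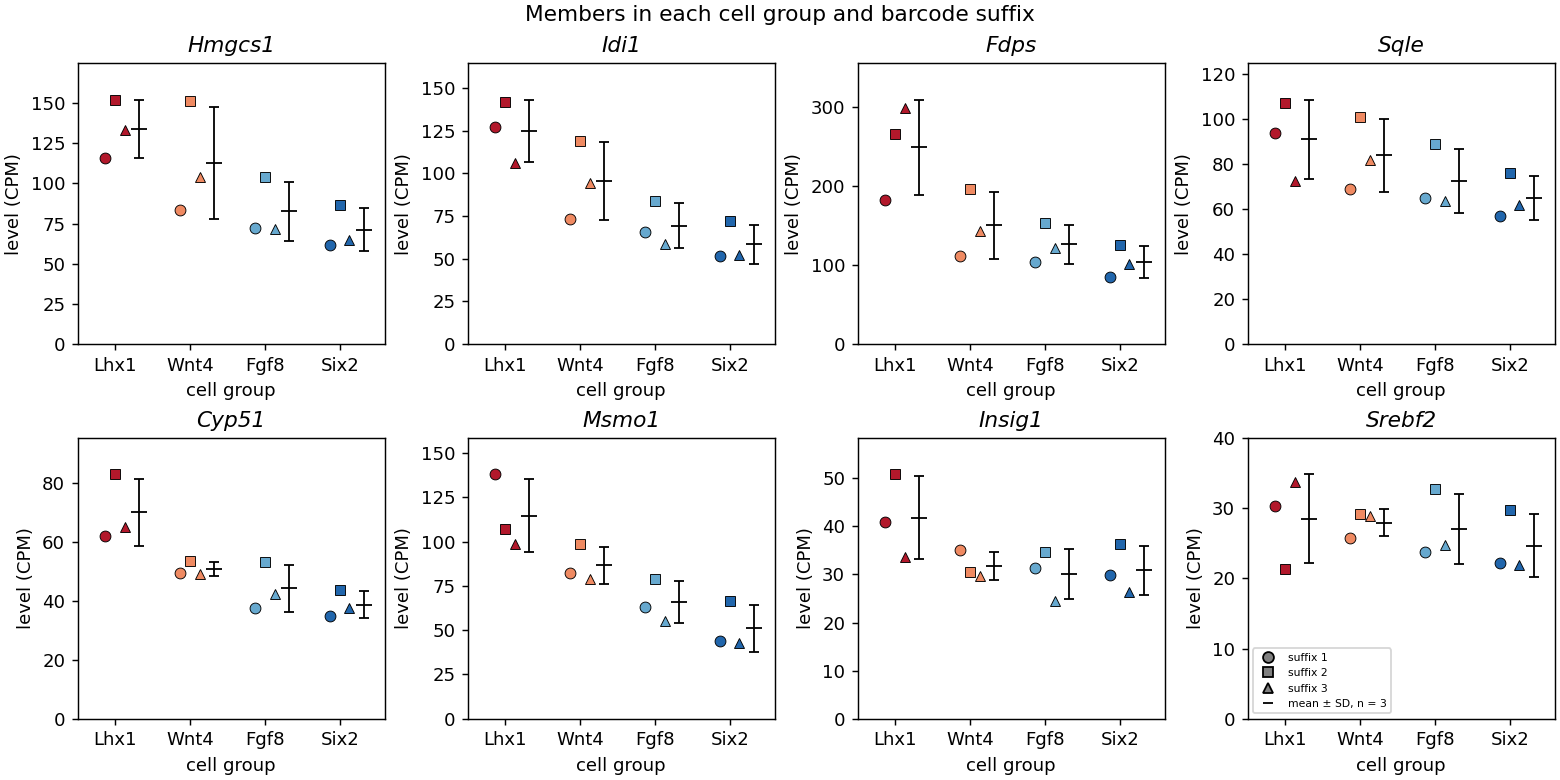
Levels (CPM, linear axes from 0) of 6 sterol enzymes and of the regulators Insig1 and Srebf2 in Lhx1, Wnt4, Fgf8 and Six2 cells, with 1 symbol per barcode suffix and the mean ± SD (n = 3). Msmo1 runs from 98.8 to 138 CPM in Lhx1 cells and from 42.8 to 66.5 CPM in Six2 cells, whereas the groups overlap for Insig1 and Srebf2.

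Of the 6 genes of regulation and transport 1 passed in a comparison of groups. Srebf2, which encodes SREBP2, was at 30.3, 21.4 and 33.7 CPM in Lhx1 cells, 25.7, 29.1 and 28.9 CPM in Wnt4 cells, 23.7, 32.7 and 24.7 CPM in Fgf8 cells and 22.2, 29.8 and 21.9 CPM in Six2 cells. Suffix 2 was the lowest of the Lhx1 values and the highest of the Six2 values, and the groups overlapped. Its log2 changes against Six2 cells were 0.25 ± 0.23, 0.21 ± 0.11 and 0.14 ± 0.07 in Lhx1, Wnt4 and Fgf8 cells (SE), and none passed. Insig1, itself induced by SREBP as a brake, was at 40.9, 50.8 and 33.7 CPM in Lhx1 cells, 35.1, 30.4 and 29.7 CPM in Wnt4 cells, 31.3, 34.6 and 24.4 CPM in Fgf8 cells and 29.8, 36.3 and 26.4 CPM in Six2 cells, with log2 changes of 0.40 ± 0.19, 0.10 ± 0.10 and -0.02 ± 0.06 (SE), none of which passed.

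Stard4, a soluble cholesterol carrier, passed in Fgf8 cells, at a log2 change of 0.29 ± 0.09 (SE; edgeR adjusted p = 0.0445). It had 10.7 to 17.1 CPM in Lhx1 cells, lowest in suffix 2, from 4 to 13 UMIs, and 11.7, 10.6 and 14.9 CPM in Wnt4 cells, against 12.4, 14 and 10.9 CPM in Fgf8 cells and 10.1, 11.6 and 9 CPM in Six2 cells. Without suffixes 1, 2 and 3 in turn its edgeR adjusted p was 0.235, 0.113 and 0.0758, so the call rests on all 3. The log2 changes of Srebf1, Scap and Insig2 lay between -0.35 (Scap) and 0.37 (Srebf1) in Lhx1 cells, 0.05 (Insig2) and 0.27 (Scap) in Wnt4 cells and -0.03 (Insig2) and 0.15 (Scap) in Fgf8 cells. In the Lhx1 and Wnt4 comparisons with Six2 cells none of the 6 genes of regulation and transport passed by edgeR or DESeq2, and 1 in each had an unadjusted p under 0.05.

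Among the 8 fatty acid enzymes, Elovl6 passed in Lhx1 and Wnt4 cells and Fads2 in Wnt4 cells; both are named after their values were seen. Elovl6, which lengthens C16 fatty acids, was at 107, 88.2 and 133 CPM in Lhx1 cells, 87.9, 108 and 110 CPM in Wnt4 cells, 79.1, 100 and 81 CPM in Fgf8 cells and 74.2, 91.7 and 73.9 CPM in Six2 cells. In Lhx1 cells suffix 2 was below its Six2 value; the log2 changes were 0.45 ± 0.14 in Lhx1 and 0.34 ± 0.07 in Wnt4 cells (SE; edgeR adjusted p = 0.0387 and 0.000484). The Lhx1 call was lost without suffix 1 or suffix 3 (edgeR adjusted p = 0.432 and 0.393). Fads2, a desaturase of polyunsaturated fatty acids, was at 6.54, 3.97 and 8.26 CPM in Wnt4 cells and 3.69, 4.83 and 3.87 CPM in Six2 cells, from 6 to 28 UMIs per suffix in Wnt4 cells, and higher in suffixes 1 and 3 only. Its log2 change was 0.73 ± 0.25 (SE; edgeR adjusted p = 0.0409), and the adjusted p was 0.332 without suffix 1 and 0.311 without suffix 3.

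The core enzymes of fatty acid synthesis, Acly, which splits citrate into acetyl-CoA, Acaca, which makes malonyl-CoA, and Fasn, which builds palmitate, did not pass in any comparison of groups by edgeR or DESeq2, and none had an unadjusted p under 0.05. Acly was at 77.8, 115 and 74.7 CPM in Lhx1 cells, 72.7, 95.3 and 80.1 CPM in Wnt4 cells, 70.6, 99 and 71.8 CPM in Fgf8 cells and 69.7, 96.2 and 72.1 CPM in Six2 cells, which overlapped throughout. Log2 changes against Six2 cells of these 3 were 0.02 to 0.13 in Lhx1 cells, 0.06 to 0.19 in Wnt4 cells and -0.05 to 0.03 in Fgf8 cells. The desaturases Scd1, Scd2 and Fads1 ranged from -0.11 (Fads1) to 0.52 (Scd1) in Lhx1 cells, from -0.10 (Fads1) to 0.44 (Scd1) in Wnt4 cells and from -0.09 (Scd2) to 0.06 (Scd1) in Fgf8 cells. Scd1 and Scd2 are close relatives, and reads could be split between them. In Fgf8 cells none of the 8 passed by edgeR or DESeq2, and 1 had an unadjusted p under 0.05.

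**Figure D3:**
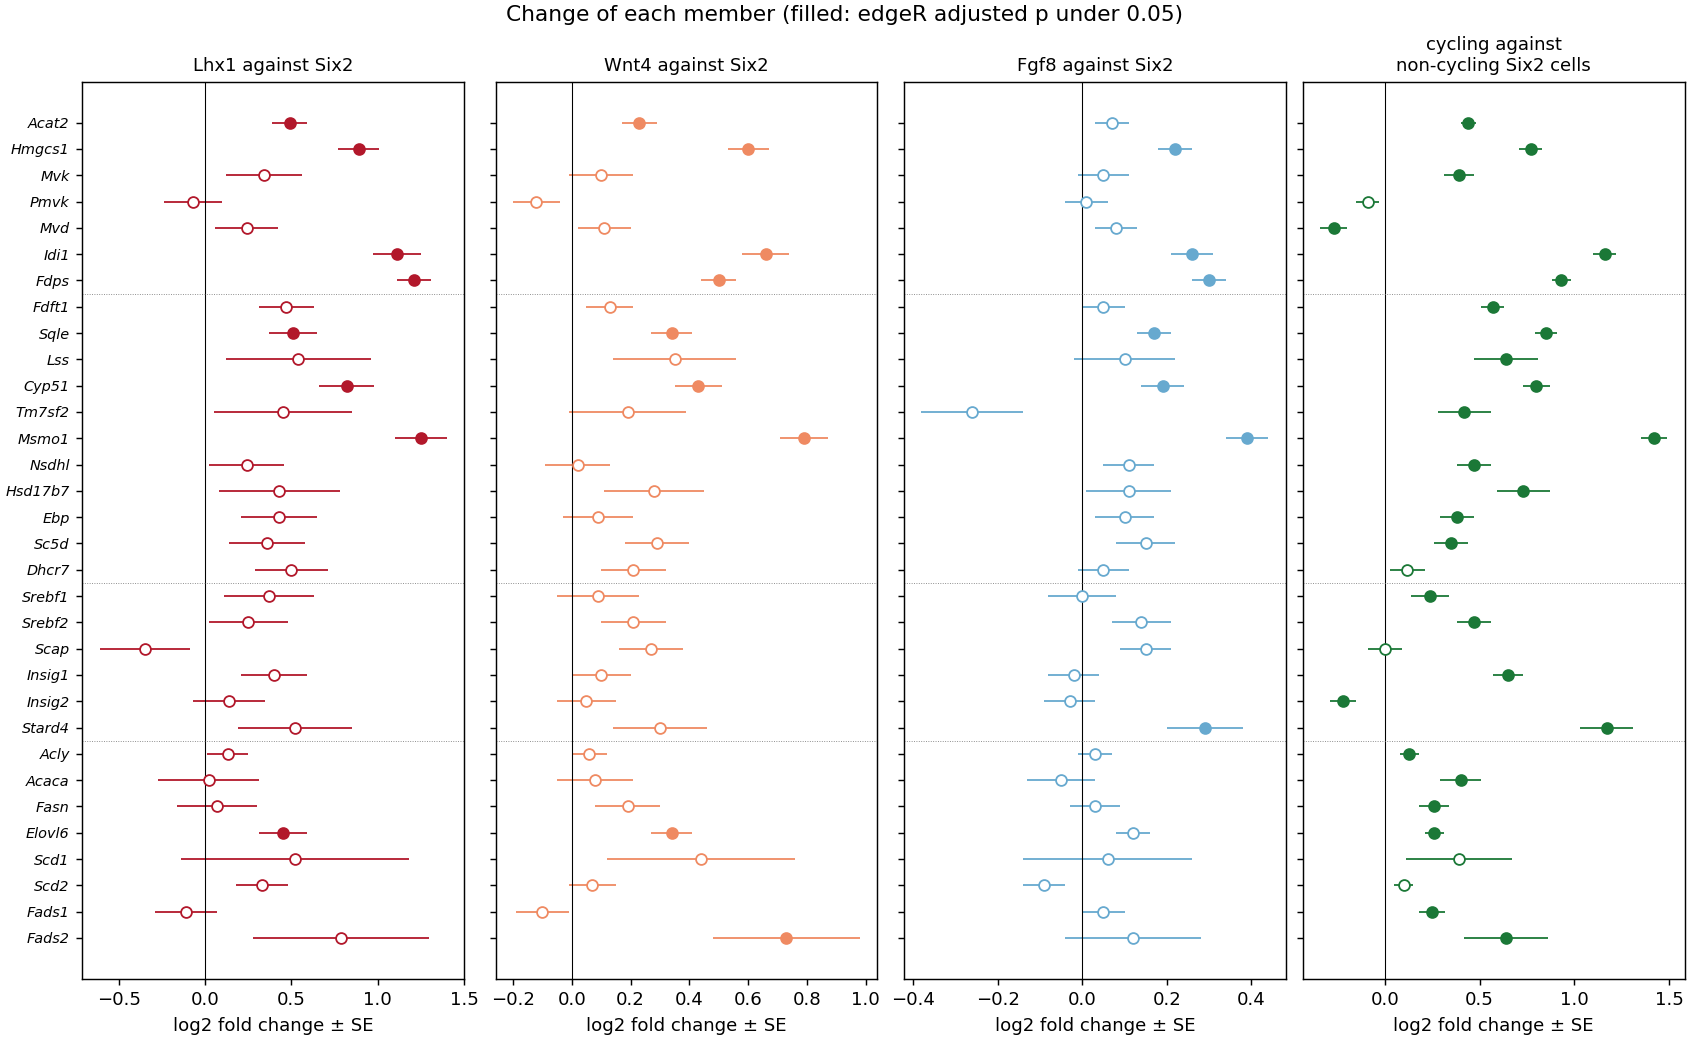
Log2 fold change ± SE (edgeR) of each of the 32 members for Lhx1, Wnt4 and Fgf8 cells against Six2 cells and for cycling against non-cycling Six2 cells; each panel has its own axis, filled points have an adjusted p under 0.05, and dotted lines part mevalonate enzymes, enzymes from squalene on, regulators and transport, and fatty acid enzymes. Msmo1 lies farthest to the right in each panel (1.25, 0.79, 0.39 and 1.42), and the core fatty acid enzymes Acly, Acaca and Fasn lie between -0.05 and 0.19 in the 3 group comparisons.

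Summed proliferation genes were higher in Wnt4 and Fgf8 cells than in Six2 cells of each suffix. In Lhx1 cells they were higher than in Six2 cells in suffixes 1 and 3 only. Against Wnt4 cells of the same suffix, the sum in Lhx1 cells was 1.34, 0.645 and 1.1 times as high. The 6 cycle genes Mki67, Top2a, Cdk1, Ccnb1, Cenpf and Rrm2 summed to 1373, 775 and 1379 CPM in Lhx1 cells, 1027, 1203 and 1248 CPM in Wnt4 cells, 962, 1197 and 897 CPM in Fgf8 cells and 798, 931 and 843 CPM in Six2 cells. Lhx1 cells of suffix 2 had the lowest cycle sum of the 12 and the highest sterol enzyme sum of the 12. However, sterol enzyme sums were highest in suffix 2 in every group. Relative to Six2 cells of the same suffix, the sterol enzyme sum of Lhx1 cells was 1.7, 1.5 and 1.81 times as high. Their cycle sum was 1.72, 0.833 and 1.63 times that of Six2 cells. Both ratios were thus lowest in suffix 2. In cells with no UMI of these 6 genes, none of the 29 members tested passed in Wnt4 or Fgf8 cells by edgeR. The suffixes held 14, 8 and 7 such Wnt4 cells and 138, 160 and 115 such Fgf8 cells. Of all 9557 genes tested, 0.136% were higher in Wnt4 cells and 1% in Fgf8 cells. In each group 3 members had an unadjusted p under 0.05, as had 686 of all genes in Wnt4 and 954 in Fgf8 cells. The median log2 change of the members was -0.03 in Wnt4 cells, with 13 of 29 above 0, against -0.078 over all genes. In Fgf8 cells it was 0.00, with 15 of 29 above 0, against -0.005. In this subset the log2 changes in Wnt4 cells were 1.34 ± 0.36 for Msmo1 (SE; edgeR adjusted p = 0.0584), 0.93 for Cyp51, 0.78 for Sqle, 0.38 for Idi1, 0.36 for Hmgcs1, -0.03 for Acat2 and -0.37 for Fdps. In Fgf8 cells they were 0.23 for Fdps, 0.22 for Msmo1, 0.20 for Idi1, 0.17 for Cyp51, -0.03 for Hmgcs1 and -0.04 for Sqle.

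Within cycling cells, those with 2 or more UMIs of Mki67 and Top2a together, 7 members were higher in Lhx1 cells than in Six2 cells (Acat2, Cyp51, Elovl6, Fdps, Hmgcs1, Idi1 and Msmo1) and 5 in Wnt4 cells (Elovl6, Fdps, Hmgcs1, Idi1 and Msmo1). Of all genes 3.59% were higher in cycling Lhx1 cells and 3.6% in cycling Wnt4 cells. The log2 change of Msmo1 was there 1.03 ± 0.15 in Lhx1 cells and 0.36 ± 0.09 in Wnt4 cells (SE; edgeR adjusted p = 7.75e-07 and 0.00514). In Fgf8 cells no member passed within cycling cells (edgeR; 4 had an unadjusted p under 0.05), where 0.682% of genes were higher, and Msmo1 had a log2 change of 0.21 ± 0.06 (SE; adjusted p = 0.0847). Against cycling Wnt4 cells, cycling Lhx1 cells were higher in Fdps (0.87 ± 0.11), Idi1 (0.67 ± 0.15) and Msmo1 (0.66 ± 0.16; SE; edgeR adjusted p = 3.3e-08, 0.0044 and 0.00673), where 1.6% of genes were higher.

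Within non-cycling cells, those with no UMI of Mki67 and Top2a, 6 members were higher in Wnt4 than in Six2 cells (Acat2, Fdps, Hmgcs1, Idi1, Msmo1 and Sqle) and 3 in Fgf8 cells (Fdps, Idi1 and Msmo1). Of all genes 2.32% were higher in non-cycling Wnt4 cells and 4.41% in non-cycling Fgf8 cells. Msmo1 then had log2 changes of 0.95 ± 0.16 in Wnt4 cells and 0.38 ± 0.09 in Fgf8 cells (SE; edgeR adjusted p = 1.3e-06 and 0.000551). In Lhx1 cells no member passed by edgeR and 3 had an unadjusted p under 0.05; only 9 genes in all passed, and 0.0473% of genes were higher. The log2 changes there were 0.52 ± 0.26 for Fdps, 0.52 ± 0.30 for Hmgcs1, 0.30 ± 0.44 for Cyp51, 0.25 ± 0.28 for Elovl6, 0.02 ± 0.46 for Msmo1, -0.02 ± 0.37 for Sqle, -0.29 ± 0.44 for Idi1 and -0.34 ± 0.27 for Acat2 (SE). There were 5, 15 and 5 non-cycling Lhx1 cells, with 67573, 166032 and 82321 UMIs. These splits by cycle state, cells with no UMI of the 6 genes apart, were chosen after seeing the data.

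Fewer members passed under several other settings, although a stricter grouping gave more in Lhx1 and Fgf8 cells. With at least 2 UMIs of Lhx1, Wnt4 or Fgf8 for these groups, 11, 9 and 10 members passed against Six2 cells by edgeR. Over all genes, in either direction, 1142, 2096 and 1793 passed. The Lhx1 cells then numbered 14, 8 and 10. At 6000 UMIs per cell, with cells grouped again and 30 members tested, 4 passed in Lhx1 cells (Fdps, Hmgcs1, Idi1 and Msmo1), 4 in Wnt4 cells (Acat2, Hmgcs1, Idi1 and Msmo1) and 3 in Fgf8 cells (Fdps, Idi1 and Msmo1), where 0.679%, 3.4% and 1.91% of genes were higher. Of those that no longer passed, Cyp51, Acat2, Sqle and Elovl6 had log2 changes of 0.82, 0.71, 0.67 and 0.24 in Lhx1 cells, and Cyp51, Elovl6, Sqle and Fdps had 0.36, 0.36, 0.34 and 0 in Wnt4 cells. In Fgf8 cells Cyp51, Stard4, Hmgcs1 and Sqle had 0.25, 0.23, 0.22 and 0.07. Without the suffix as a block 5 passed in Lhx1 cells (1.91% of genes higher), 4 in Wnt4 cells (1.06%) and 0 in Fgf8 cells (0%), where no gene at all passed by edgeR and 449 had an unadjusted p under 0.05. With cells of 2 or more ureteric or immune markers left out, 7 passed in Lhx1 cells (2.52% of genes higher), all but Elovl6, and the log2 changes of Msmo1, Fdps, Idi1 and Hmgcs1 were 1.19, 1.13, 1.10 and 0.75. Without suffixes 1, 2 and 3 in turn, 5, 9 and 6 members passed in Lhx1 cells, 7, 9 and 8 in Wnt4 cells and 5, 4 and 6 in Fgf8 cells. Over all genes, in either direction, 243, 1058 and 540 passed in Lhx1 cells. The same counts were 1040, 2030 and 1238 in Wnt4 cells and 342, 832 and 1005 in Fgf8 cells. Fdps, Hmgcs1, Idi1 and Msmo1 were among the members that passed in each of these 9 fits.

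Proliferation was then examined inside the Six2 group, by comparing its cycling cells (472, 392 and 354 per suffix) with its non-cycling cells (664, 794 and 574). Of the 32 members 25 were higher and 2 lower in cycling cells (edgeR, adjusted p under 0.05), where 23.3% of 11678 genes tested were higher and 22.2% lower (45.6% in all). The median log2 change was 0.41, against -0.03 over all genes, and it was 0.52 for the 18 sterol enzymes and 0.26 for the 8 fatty acid enzymes. The sterol enzymes summed to 825, 1218 and 918 CPM in cycling cells and 593, 792 and 598 CPM in non-cycling cells, a ratio of 1.49 ± 0.0842 (SD, n = 3). For the fatty acid enzymes the sums were 329, 381 and 340 CPM in cycling cells and 282, 378 and 290 CPM in non-cycling cells, a ratio of 1.12 ± 0.0945.

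Msmo1 had the largest change, at 63.1, 111 and 68.2 CPM in cycling cells and 30.6, 39.3 and 22.8 CPM in non-cycling cells, which did not overlap (log2 change 1.42 ± 0.07, SE; edgeR adjusted p = 4.04e-31). Stard4 was at 14.6, 15.5 and 13.9 CPM in cycling cells and 6.5, 8.55 and 5.33 CPM in non-cycling cells, again without overlap (1.17 ± 0.14; edgeR adjusted p = 1.35e-11). Idi1 followed with 70.2, 109 and 73.7 CPM in cycling and 35, 46.8 and 34.6 CPM in non-cycling cells (1.16 ± 0.06; edgeR adjusted p = 2.29e-29). Fdps (0.93 ± 0.05), Sqle (0.85 ± 0.06), Cyp51 (0.80 ± 0.07), Hmgcs1 (0.77 ± 0.06), Hsd17b7 (0.73 ± 0.14), Fdft1 (0.57 ± 0.06) and Acat2 (0.44 ± 0.04) also rose. So did the regulators Insig1 (0.65 ± 0.08; 36.4, 44.8 and 31.7 CPM in cycling and 23.4, 29.3 and 22 CPM in non-cycling cells) and Srebf2 (0.47 ± 0.09; 25.4, 37.2 and 24.8 CPM in cycling and 19.8, 25.4 and 19.7 CPM in non-cycling cells). The remaining 13 that rose had log2 changes from 0.13 (Acly) to 0.64 (Lss and Fads2), among them 6 of the 8 fatty acid enzymes. At equal depth none of these 6 passed, and neither did Srebf2.

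Insig2 and Mvd ran the other way and are named after their values were seen. Insig2, the Insig gene that is not itself an SREBP target, was at 28, 40.8 and 30.9 CPM in cycling cells and 35.4, 45.7 and 38.3 CPM in non-cycling cells (-0.22 ± 0.07, SE; edgeR adjusted p = 0.0127). Mvd was at 28.1, 47.3 and 34.7 CPM in cycling cells and 39.7, 53.9 and 42.7 CPM in non-cycling cells (-0.27 ± 0.07; edgeR adjusted p = 0.00111). For both genes the groups overlapped across suffixes, and cycling cells were lower within each suffix. Neither passed by DESeq2 (adjusted p = 0.34 and 0.167) or without suffix 1 (edgeR adjusted p = 0.117 and 0.0823), and Insig2 did not pass without suffix 3 (0.0646). The 5 members that did not pass were Pmvk (-0.09 ± 0.06), Dhcr7 (0.12 ± 0.09), Scap (0.00 ± 0.09), Scd1 (0.39 ± 0.28) and Scd2 (0.10 ± 0.05).

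DESeq2 called 15 members (13.3% of genes higher) and thinning to 6000 UMIs left 14 calls (16.3%), each of them higher. Of the fatty acid enzymes DESeq2 kept Elovl6 alone, and thinning kept none. In thinned cells Elovl6 and Fads2 had log2 changes of 0.12 ± 0.10 and 0.89 ± 0.40 (SE; edgeR adjusted p = 0.391 and 0.0829). Srebf2 passed by DESeq2 (adjusted p = 0.0202) but not in thinned cells (0.26 ± 0.16; edgeR adjusted p = 0.211). The fit without suffix 1 called 21 members, that without suffix 2 called 28 and that without suffix 3 called 22. Over all genes, in either direction, these fits called 4485, 4536 and 4407. Cycling cells had more UMIs, and cells were therefore also compared at 6000 UMIs each. In Six2 cells the sterol enzyme sum then went with the number of Mki67 and Top2a UMIs, at 675 ± 96.6 CPM with 0, 782 ± 167 with 1, 926 ± 181 with 2 to 3 and 1036 ± 253 with 4 or more (SD, n = 3). The fatty acid sum was 323 ± 50.8, 333 ± 21.3, 321 ± 58.4 and 338 ± 34.5 CPM in the same classes. In Fgf8 cells the sterol sum was 739 ± 125, 912 ± 244, 1019 ± 171 and 1042 ± 148 CPM. Wnt4 cells did not follow this order: their sum was 924 ± 161, 1245 ± 511, 1294 ± 504 and 864 ± 65.9 CPM, from 199, 62, 57 and 92 cells. Between Wnt4 and Six2 cells no test of this difference was run.

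**Figure D4:**
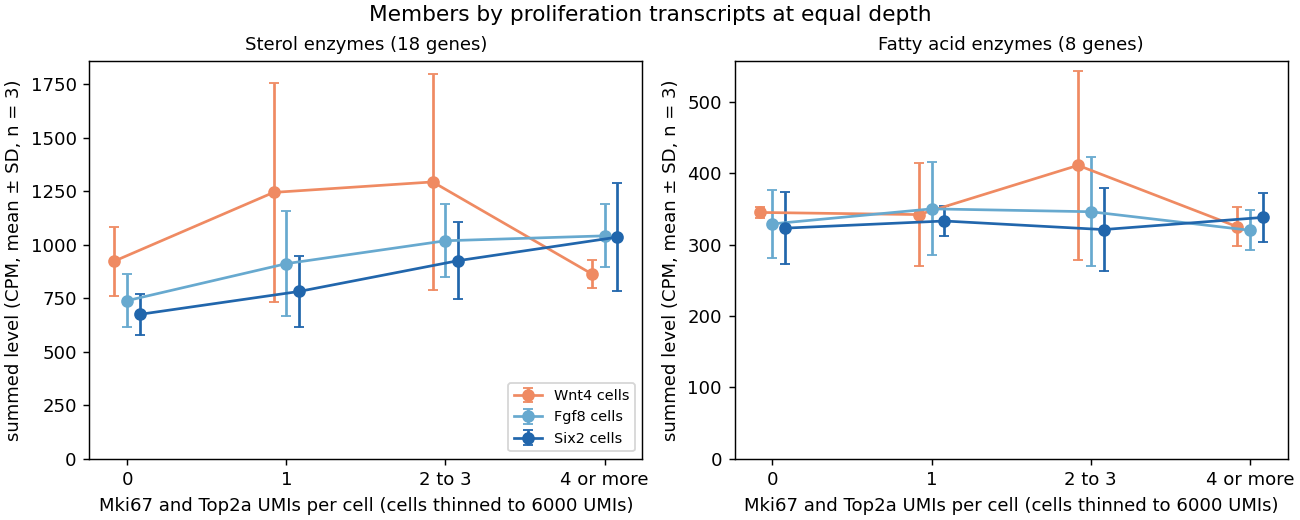
Summed levels (CPM, mean ± SD over 3 suffixes, linear axes from 0) of the 18 sterol enzymes and the 8 fatty acid enzymes against the number of Mki67 and Top2a UMIs per cell, in Wnt4, Fgf8 and Six2 cells thinned to 6000 UMIs. In Six2 cells the sterol enzymes run from 675 to 1036 CPM with more proliferation transcripts, while in Wnt4 cells the class with 4 or more stands at 864 CPM; the fatty acid enzymes stay between 320 and 411 CPM.

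Six2 cells that leaned to one part of the cycle differed too, as a description. At 6000 UMIs, 118 cells with 3 or more UMIs of the mitotic genes Ccnb1 and Cenpf and none of Rrm2 had a sterol enzyme sum of 1035, 1471 and 1081 CPM. The 415 cells with 2 or more UMIs of the S phase gene Rrm2 and none of Ccnb1 or Cenpf had 710, 951 and 867 CPM, and 1427 cells with none of the 6 cycle genes had 561, 745 and 602 CPM. In each suffix the mitotic-leaning cells were highest and the cells without cycle UMIs lowest. Hmgcs1 was at 155, 157 and 114 CPM in mitotic-leaning cells, 67.4, 77.7 and 70.3 CPM in Rrm2 cells and 50.5, 66.2 and 48.5 CPM in cells without cycle UMIs. For this gene Rrm2 cells lay nearer the cells without. Idi1 was at 93, 103 and 89.4 CPM, 55.9, 90.2 and 68.8 CPM, and 31.6, 37.1 and 34.4 CPM in the same order. In suffixes 2 and 3 its Rrm2 value lay nearer the mitotic-leaning one. The place of Rrm2 cells thus differed between members.

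The spread among single cells is given as a description. At 6000 UMIs a Six2 cell held a mean of 3.95, 5.44 and 4.27 sterol enzyme UMIs, with 0 to 40 in single cells, and the variance was 2.08, 2.71 and 2.06 times the mean. For the fatty acid enzymes the mean was 1.74, 2.26 and 1.89 UMIs and the variance 1.1, 1.07 and 1.1 times the mean. Wnt4 cells had ratios of 2.71, 3.93 and 2.36 for the sterol enzymes and 1.1, 1.22 and 1.25 for the fatty acid enzymes. Counts with a higher mean leave more room for such excess, so the lists cannot be compared by this ratio alone. Across Six2 cells of 1 suffix the 2 sums correlated at Pearson's r of 0.108, 0.13 and 0.126; these are cells of the same library with sparse counts, and such weak values are given only as a description.

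Levels in suffix 2 stood apart, for the members as for all genes other than ribosomal ones. In Six2 and in Fgf8 cells each of the 32 members was highest in suffix 2, in Wnt4 cells 24 of 32 and in Lhx1 cells 16 of 32. The share of all genes highest in suffix 2 was not counted, so these counts cannot be read as a trait of the members. In Six2 cells the sterol enzyme sum of suffix 2 was 1.33 times the mean of suffixes 1 and 3 and the fatty acid sum 1.23 times, where all genes other than ribosomal ones were 1.13 times and ribosomal protein genes 0.592 times. Comparisons between groups were made within suffixes, and the part of depth or RNA quality in this difference was not tested.

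Neighbouring pathways were read from 5 further lists of lipid metabolism. For SREBP processing and sterol sensing, 1 of 8 genes passed against Six2 cells in each of Lhx1, Wnt4 and Fgf8 cells, and it was Tmem97, a sterol-regulated membrane protein. Tmem97 was at 76.5, 102 and 86.8 CPM in Lhx1 cells, 65, 82 and 84.2 CPM in Wnt4 cells, 54.8, 72 and 54.9 CPM in Fgf8 cells and 49.1, 59.9 and 50.6 CPM in Six2 cells, with log2 changes of 0.69 ± 0.15, 0.52 ± 0.07 and 0.19 ± 0.05 (SE; edgeR adjusted p = 0.00184, 2.92e-06 and 0.00579). Counts for these lists stand against the shares of all genes given above, which for cycling Six2 cells were 23.3% higher and 22.2% lower. In cycling against non-cycling Six2 cells Tmem97 rose by 1.12 ± 0.06 and Ubxn8 fell by 0.20 ± 0.09. Of 9 tested genes of the liver X receptor response and sterol export, the lysosomal cholesterol binder Npc2 fell in Wnt4 cells (-0.29 ± 0.05) and in Fgf8 cells (-0.21 ± 0.03). Osbpl1a fell in both and Stard3 fell in Wnt4 cells, named after their values were seen. In cycling cells 5 of the 9 fell, among them the exporter gene Abcg1 (-1.38 ± 0.34), Mylip (-0.66 ± 0.11), whose product marks lipoprotein receptors for degradation, and Npc2 (-0.51 ± 0.04), and Apoe rose (0.66 ± 0.12).

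Apoe passed as higher in Wnt4 cells (1.38 ± 0.40, SE; edgeR adjusted p = 0.0147), at 13.3, 141 and 16.1 CPM against 14.1, 15.8 and 16.5 CPM in Six2 cells, so that suffix 2 alone was high; the immune markers summed there to 53.6 CPM, against 3.51 and 1.24 CPM in the other Wnt4 sums, and their part was not tested. Among the genes of these 5 lists Tmem97 and Mid1ip1 alone passed in Lhx1 cells by edgeR. In the isoprenoid branch Pdss1, of ubiquinone synthesis, was higher in Wnt4 cells (0.35 ± 0.11), and in cycling cells 2 of 9 genes were higher (Pdss1 and Coq2) and 3 lower (Pdss2, Ggps1 and Fnta, the last named after its values were seen), close to the shares of all genes. Of 12 genes of acetyl-CoA supply and elongation, Me1, malic enzyme, was higher in Wnt4 cells (0.83 ± 0.28), Acsl3, which activates fatty acids, was higher in Wnt4 (0.28 ± 0.06) and Fgf8 cells (0.40 ± 0.04), Mid1ip1, an activator of acetyl-CoA carboxylase, in Lhx1 (1.58 ± 0.34) and Wnt4 cells (0.68 ± 0.20), and Acss2 was lower in Wnt4 cells (-0.97 ± 0.25). The counts of higher and lower genes in that list were 1 and 0 in Lhx1, 4 and 1 in Wnt4, 2 and 0 in Fgf8 and 5 and 1 in cycling cells. Of 10 tested genes of fatty acid oxidation, Acadm fell in Wnt4 cells (-0.27 ± 0.08) and Acadvl in Fgf8 cells (-0.22 ± 0.06), and in cycling cells 2 rose, among them Acadl (0.45 ± 0.07), and 5 fell, among them Acadvl (-0.56 ± 0.08) and Cpt1a (-0.38 ± 0.14) (SE; edgeR, adjusted p under 0.05 for each change named). The 2 of 10 that rose in cycling cells and the 1 of 10 that fell in Wnt4 cells are near the shares of all genes, 23.3% higher in cycling cells and 8.61% lower in Wnt4 cells.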

How the data were processed

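Cells of 3 tubes of sorted nephron progenitors were sequenced with the 10x Chromium version V2 kit and paired reads of 100 bases, per the labels' protocols. The counts deposited by the authors are whole UMIs per gene and cell in 1 matrix, made with Cell Ranger 1.3.1 on build mm10, per the submitters' processing notes. No source used here pairs the tube titles with the barcode suffixes, which therefore name the tubes.

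Cells with at least 1000 genes and at most 10% mitochondrial UMIs were kept (7898 of 7924). Scrublet, as run in scanpy 1.11.5 with an expected 3% of doublets, called 20 cells (0.253%), too few to trust, so none was removed and doublets have to be taken as still present. UMI counts were summed per suffix and cell group, with totals from 373985 (Lhx1 cells, suffix 2) to 22209716 (Six2 cells, suffix 1), and tested with edgeR 4.0.16 (limma 3.58.1, R 4.3.3): TMM, filterByExpr, quasi-likelihood test, two-sided, Benjamini-Hochberg over all genes tested, threshold 0.05. The 12 sums of 4 groups shared 1 fit, and cycling and non-cycling Six2 cells had a fit of 6 sums without Mki67 and Top2a. The suffix was a block in both fits, because sums with the same suffix come from the same tube. CPM are counts divided by all UMIs of the sum, and a ± beside a log2 change is its standard error. For comparisons at equal depth each cell was thinned to 6000 UMIs, which left out 196 shallower cells. Alternatives were DESeq2 1.42.0, no filter, no block, thinned cells, other cell choices and each suffix left out. The fits were tested on simulated data with a single set spread for all genes. Of 1.5-fold changes, 2.08%, 8.51% and 22.92% were recovered for Lhx1, Wnt4 and Fgf8 against Six2 cells. Of 2-fold changes, 48%, 68% and 87.76% were recovered. A member that did not pass can therefore still differ.

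The members and all lists were chosen with earlier results of these data known. Values in every suffix are given for members that passed in at least 1 comparison and averaged at least 10 CPM in 1 group, at most 12, those with the largest change first, and for Srebf2 and Insig1. Genes of other lists are named where they passed, at most 4 a list, by size of change. Promoters are from RefSeq (GRCm38.p6).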

Additional observations from a re-analysis of the deposited data

How the results depend on the processing

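Of 555 log2 changes of named members under the alternatives, 481 kept their side of the threshold and 65 no longer passed. Where Srebf2 or Insig1 had not passed before, a change of sign counts as kept, as for Srebf2 in thinned Fgf8 cells (-0.09, against 0.14). The other 9, which had passed before, reversed, and none of them passed. Reversed were Hmgcs1 (-0.03) and Sqle (-0.04) in Fgf8 cells and Fdps (-0.37) and Acat2 (-0.03) in Wnt4 cells without cycle UMIs, Fdps (0) in thinned Wnt4 cells, and, in non-cycling Lhx1 cells, Idi1 (-0.29), Sqle (-0.02) and Acat2 (-0.34) against Six2 cells and Fdps (-0.01) against Wnt4 cells. The cause was not tested. The subset without cycle UMIs could not be fitted for Lhx1 cells, with none in suffix 3.

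Counts moved as follows, all genes first and members second. For Fgf8 against Six2 cells (1237 and 7), DESeq2 gave 301 and 4, no replicate block 0 and 0 (449 genes and 2 members at an unadjusted p under 0.05), thinning 289 and 3, cells without cycle UMIs 158 and 0, cycling cells 127 and 0 and non-cycling cells 730 and 3. DESeq2 gave Stard4 no adjusted p there. For Wnt4 against Six2 cells (2141 and 9), no block gave 261 and 4, thinning 549 and 4, cells without cycle UMIs 27 and 0, cycling cells 787 and 5 and non-cycling cells 385 and 6. For Lhx1 against Six2 cells (872 and 8), no block gave 343 and 5, thinning 168 and 4, cells without other markers 546 and 7 and non-cycling cells 9 and 0. For Lhx1 against Wnt4 cells (176 and 1), no filter gave 313 genes, no block 96 and 0, thinning 31 genes, cells without other markers 79 genes, cycling cells 281 and 3 and non-cycling cells 9 and 0, while 2 members passed without A and T rich barcodes and 3 with at least 2 UMIs. For cycling against non-cycling Six2 cells (5323 and 27), DESeq2 gave 2389 and 15, no block 2090 and 17 and thinning 2983 and 14.

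Without each suffix in turn, genes and members ranged from 342 to 1005 and 4 to 6 (Fgf8), 1040 to 2030 and 7 to 9 (Wnt4), 243 to 1058 and 5 to 9 (Lhx1 against Six2), 52 to 235 and 1 to 2 (Lhx1 against Wnt4) and 4407 to 4536 and 21 to 28 (cycling). The lowest counts came without suffix 1, except for the Fgf8 members (without suffix 2) and the cycling genes (without suffix 3). The Lhx1 sums, of 19 to 31 cells, limit what could be detected there. Cycling and non-cycling subsets were chosen after seeing the data.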
